A study of Mus musculus with 20 samples.

Results

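The question addressed here was whether loss of the glucocorticoid receptor (GR, gene Nr3c1) in the lung mesenchyme changed expression by the same amount at both of 2 fetal mouse stages, E16.5 and E18.5 (days after mating). The quantity that answers it is the interaction: the log2 difference between mutants and controls at E18.5 minus the same difference at E16.5. Messenger RNA of the left lung lobe was measured on Affymetrix Mouse430A_2 arrays, 1 array per animal, and all 20 arrays of the series entered, in 4 groups of 5 taken from the sample titles. Controls carried a floxed GR gene (genotype GR flox), at E16.5 in the first group and at E18.5 in the second. Mutants (genotype GRCol1-Cre, called GR ablation in the titles) formed the other 2 groups, and in them GR was removed by a Cre recombinase expressed from a bacterial artificial chromosome that holds the collagen type (I)-alpha-2 locus, which directs it to mesenchymal cells. All animals were on the C57Bl6 background, and the labels name no treatment. The lobe also holds epithelium, endothelium and blood cells, which the Cre line is not described as targeting. In such bulk tissue fewer cells of a type and less RNA per cell cannot be told apart.

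Glucocorticoids are steroid hormones that diffuse into cells and bind GR, which then enters the nucleus, binds DNA and raises or lowers transcription of nearby genes. The hormone rises in the fetus shortly before birth, and in the lung it is known for speeding up maturation: septa thin, cell division slows, surfactant is made and lung liquid is absorbed. Mesenchymal cells are a main site of this action in the fetal mouse lung, and they in turn signal to the epithelium.

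Of 12393 genes with a probe set naming that gene alone, 8068 were tested, because their log2 value was above 4 on at least 5 of the 20 arrays. A gene was called measurable at E16.5 when its mean was above 4 in at least 1 of the 2 E16.5 groups, which held for 7840 tested genes, and dim otherwise, which held for 228. The E16.5 values of a dim gene lay near the floor of the measurement, so an effect there was poorly measured and its interaction rests mainly on the E18.5 arrays. Dim genes were also tested only where the E18.5 arrays brought them past the filter, so the share of them that was called supports nothing and is given as a description. At the boundary itself, Sema3c (higher E16.5 mean 3.9996, interaction -0.46) and Efna3 (3.998, interaction -1.64) lay just on the dim side, and Frrs1 (4.003, interaction -0.61) and Tmem191c (4.006, interaction -0.01) just on the measurable side.

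The arrays were alike in scale, with medians over all probe sets of 5.70 to 5.87 and correlations of at least 0.965 within groups. However, 1 array stood apart and another did so less. On the line from the E16.5 control mean (0) to the E18.5 control mean (1), E18.5 control replicate 3 lay at 0.704, while the other 4 E18.5 controls lay at 1.02 to 1.09 and the E18.5 mutants at 0.452 to 0.769. E16.5 control replicate 5 lay at 0.211, toward the later stage, while the other E16.5 controls lay at -0.090 to 0.043. By Xist and the Y-linked genes Eif2s3y and Uty, 1 of the 5 E16.5 controls was female, against 5 of the 5 E16.5 mutants, 3 E18.5 controls and 2 E18.5 mutants, so sex and genotype nearly coincided at E16.5. That female control was replicate 5, so among E16.5 controls sex cannot be told apart from the later position of this array. Several markers of lung mesenchyme, endothelium and epithelium were bright on every array (lowest values 12.7 for Col1a2, 14.0 for Col3a1, 8.65 for Pecam1, 10.1 for Epcam and 14.6 for Sftpc). Other markers were not. The probe set for Nkx2-1, a transcription factor of lung epithelium, was dim on all 20, as were those for the endothelial genes Erg and Prox1 and the epithelial gene Etv4. The mesothelial marker Wt1 reached at most 3.89, and the type I cell marker Aqp5 averaged 2.23 in E16.5 controls. Heart muscle transcripts were present on every array (Actc1 at 10.4 to 12.1), and the 10 thymus markers on the array were dim on all of them.

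The effect of GR loss depended on the stage for 678 of 8068 genes, 8.40% of those tested, in a linear model fitted across all genes with limma (Benjamini-Hochberg adjusted p under 0.05). Of these, 292 had a positive interaction (3.62%) and 386 a negative one (4.78%), and 2001 genes had an unadjusted p under 0.05. Among genes measurable at E16.5 the interaction was called for 596 (7.60%), 289 positive and 307 negative, and among dim genes for 82 (36.0%), 3 positive and 79 negative. The mutant effect by itself was called for 20 genes at E16.5 (0.248%) and for 2784 at E18.5 (34.5%). A difference of at least 1 on the log2 scale between mutants and controls was seen in 23 genes at E16.5 and in 439 at E18.5. Between these effects, which rest on different animals, the sign was the same in 5075 genes (62.9%).

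The shapes of both kinds of stage dependence are given as values, because the interaction shares its arrays with every effect beside it. In the 307 measurable genes with a negative interaction (median -0.70) the mutant effect had a median of -0.01 at E16.5 and of -0.71 at E18.5, the controls changed by a median of 1.16 from E16.5 to E18.5 and the mutants by 0.47. The 289 measurable genes with a positive interaction (median 0.75) had median effects of 0.03 and 0.78, and changed between stages by -1.30 in controls and by -0.58 in mutants. Over all tested genes, of which 70.9% were called for the change between stages in controls and 56.2% in mutants, the medians were 0.02 for the interaction, 0.01 and 0.03 for the effects and -0.01 for the change in controls. Of the 678 called genes, 673 had the larger effect in size at E18.5 and 5 at E16.5 (Ppp1r3c, Fgf18, Kdm5d, Mfsd5 and Adssl1). Over all 8068 tested genes these counts were 6540 and 1528.

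**Figure D1:**
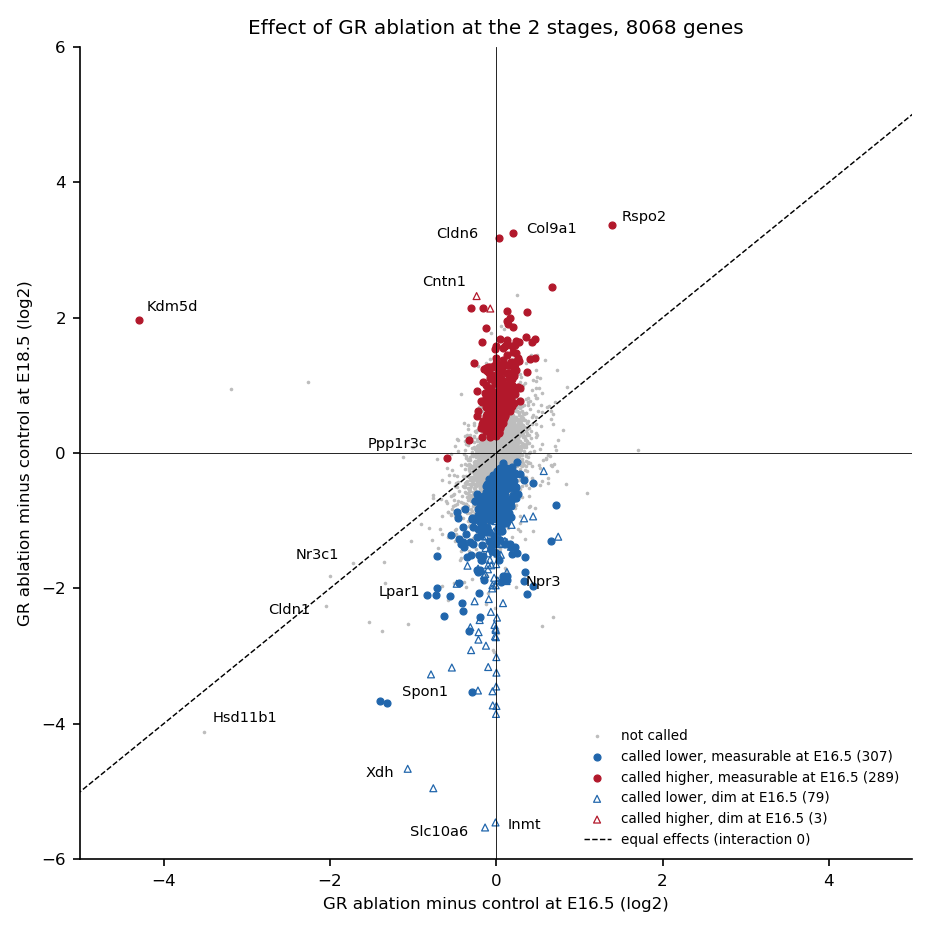
Log2 difference between GR ablation and control animals at E16.5 (horizontal) and at E18.5 (vertical) for 8066 of 8068 genes; Xist and Eif2s3y, which tell the sexes apart, lie outside the axes. Coloured genes were called for the interaction, and their points spread along the vertical axis, away from the dashed line of equal effects near which Hsd11b1, Cldn1 and Nr3c1 lie.

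The count of 678 depended strongly on single arrays. Without E18.5 control replicate 3 it was 1445, which held all 678, and without E18.5 control replicate 5 it was 393, the lowest of the 20 leave-outs. It was 919 without E16.5 control replicate 5, 939 without E18.5 mutant replicate 3 and 933 without E18.5 mutant replicate 5, and 393 to 652 without any of the other 16 arrays. With the sex of the embryo as a covariate 403 genes were called, 320 of them among the 678. Of the 143 genes named by rule, 116 were called, and 75 of these kept the call in all 20 leave-outs. Of the 116, 64 were called with sex as a covariate and 52 were not. Among the 75 the call was lost with sex as a covariate for 18, with adjusted p of 0.0527 to 0.159: Adamts15, Cldn6, Col9a1, Cyp4b1, Fgf18, Fmo2, Fmod, Jun, Klf6, Lpl, Lyve1, Mia, Pola1, Ppp1r3c, Psrc1, Scnn1b, Vegfa and Zbtb16. Each of the other 41 kept its direction and lost the call when certain arrays were left out. Below, such a gene is given with the number of the 20 leave-outs in which it was still called. For genes outside the naming rule no count was made unless one is printed, so its absence there does not mean a stable call.

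**Figure D2:**
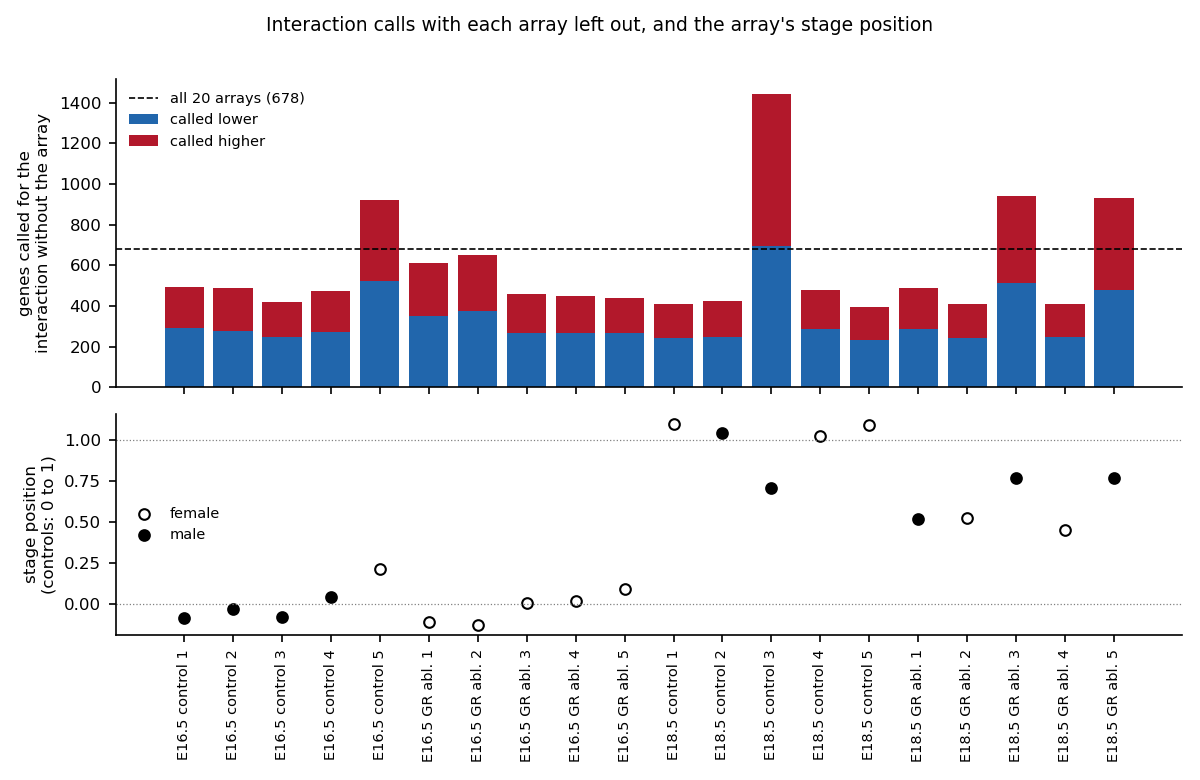
Top, number of genes called for the interaction (positive, red; negative, blue) after leaving out each array in turn, with a line at 678 for all 20 arrays. Bottom, stage position of the same array on the axis from the E16.5 control mean (0) to the E18.5 control mean (1), with open circles for female and filled circles for male embryos; E18.5 control replicate 3 sits at 0.704 and its removal gives the highest count, 1445.

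The targeted gene itself showed no stage dependence that could be measured in its brightest probe set. Nr3c1 read 8.69, 8.58, 8.74, 8.76 and 9.15 in the E16.5 controls (replicates 1 to 5) and 6.31, 7.22, 7.50, 7.10 and 7.19 in the E16.5 mutants. At E18.5 it read 9.57, 9.47, 9.02, 9.49 and 9.53 in controls and 7.80, 7.56, 8.05, 7.67 and 7.89 in mutants. Mutants and controls did not overlap at either stage. The effect was -1.72 at E16.5 and -1.62 at E18.5 (SE 0.17 each), and the interaction was 0.10 (SE 0.24, 95% interval -0.42 to 0.61, limma adjusted p = 0.85). Its sign was not stable, since it was -0.09 without E16.5 mutant replicate 1 and below 0 without E18.5 control replicate 3. Over the 3 tested probe sets of Nr3c1 the interaction ranged from -0.44 to 0.15, and the place of the probe sets relative to the deleted exon is not known here.

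The 20 genes called at E16.5 come from a comparison of 5 female mutants with 4 male controls and 1 female control. With sex as a covariate 8 genes were called at that stage, and with the replicate number as a block 12. All 20 had the same sign at E18.5, beside 62.9% of all genes. Of the 20, 16 were larger in size there, a share near that of all tested genes (6540 of 8068), so nothing is read from it. Their median size was 0.67 at E16.5 and 1.09 at E18.5. For 14 of them the interaction was not called. Hsd11b1, the enzyme that regenerates active glucocorticoid inside cells, had the largest effect of the 20 at both stages, -3.52 and -4.12 (SE 0.43), with an interaction of -0.61 (95% interval -1.89 to 0.67). G0s2, an inhibitor of triglyceride breakdown, read 9.70, 10.44, 9.87, 10.20 and 10.55 in E16.5 controls against 8.14, 7.80, 8.41, 8.05 and 8.36 in mutants of that stage. The E18.5 controls read 10.92, 11.11, 10.96, 10.97 and 10.94 and the mutants 9.29, 9.38, 9.16, 8.80 and 9.18, again without overlap, and its interaction was 0.18 (95% interval -0.26 to 0.63). The tight junction gene Cldn1 (-0.21, 95% interval -0.80 to 0.38) and the hypoxia-inducible factor subunit Hif3a (-0.26, -0.94 to 0.43) likewise had intervals that include 0. So did Ppp1r14a, an inhibitor of myosin phosphatase (-0.11, -0.33 to 0.10), the circadian receptor Nr1d2 (0.06, -0.24 to 0.36) and the fatty acid oxidation enzyme Acaa2 (-0.05, -0.25 to 0.14). The intervals for Hsd11b1 and Hif3a are wide, and a difference of -0.5 between stages would lie within both. Intervals on 1 side of 0 but without a call were found for the clock gene Per1 (-0.97, adjusted p = 0.119), the mesenchymal homeobox gene Prrx1 (0.50, 0.0963), the orphan receptor Nr2f1 (0.39, 0.0817) and Igsf5 (0.37, 0.129). The lysyl oxidase gene Lox (-0.29) and Dgat2, which makes triglyceride (-0.58), were not called either. Per1 was called without E16.5 control replicate 5 (-1.20, adjusted p = 0.0294) and Prrx1 without E18.5 control replicate 3 (0.57, 0.0357), in each case 1 of the 20 leave-outs.

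For the other 6 genes called at E16.5 the effect differed between stages. Lpar1, a receptor for lysophosphatidic acid that marks lipid-storing fibroblasts, read 8.50, 8.36, 8.10, 8.37 and 8.73 in E16.5 controls and 7.75, 7.77, 7.58, 7.74 and 7.66 in mutants. Later, at E18.5, the values were 9.01, 9.06, 9.02, 9.33 and 9.20 in controls and 7.33, 7.30, 6.73, 7.20 and 7.11 in mutants. The groups were separate at both stages, and the gap widened from -0.71 to -1.99, an interaction of -1.28 (SE 0.16, adjusted p = 6.9e-05) that was called in all leave-outs. In controls Lpar1 rose by 0.71 between the stages, and in mutants it fell by 0.57. The glutathione transferase Gstm2 had a small interaction with a narrow error (-0.45, SE 0.07, adjusted p = 0.00103). Mgp, an inhibitor of calcification in matrix (-0.40, adjusted p = 0.0318, called in 14 of 20 leave-outs), and the small proteoglycan Ogn (-0.51, 0.0257, 16 of 20) were lower at both stages and more so at E18.5.

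Ppp1r3c, a subunit that directs phosphatase to glycogen, was the gene called at E16.5 whose effect was smaller at E18.5 by test. It read 12.05, 12.003, 11.80, 12.01 and 12.12 in E16.5 controls and 11.41, 11.21, 11.48, 11.31 and 11.59 in mutants, with no overlap. In controls at E18.5 the values were 12.22, 12.18, 12.43, 12.12 and 12.07, and the mutants, at 12.13 ± 0.08 (SD, n = 5), overlapped with them. The effect was -0.60 at E16.5 and -0.07 at E18.5, an interaction of 0.52 (SE 0.11, adjusted p = 0.0109). With sex as a covariate it was 0.48 with a limma adjusted p of 0.0527.

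**Figure D3:**
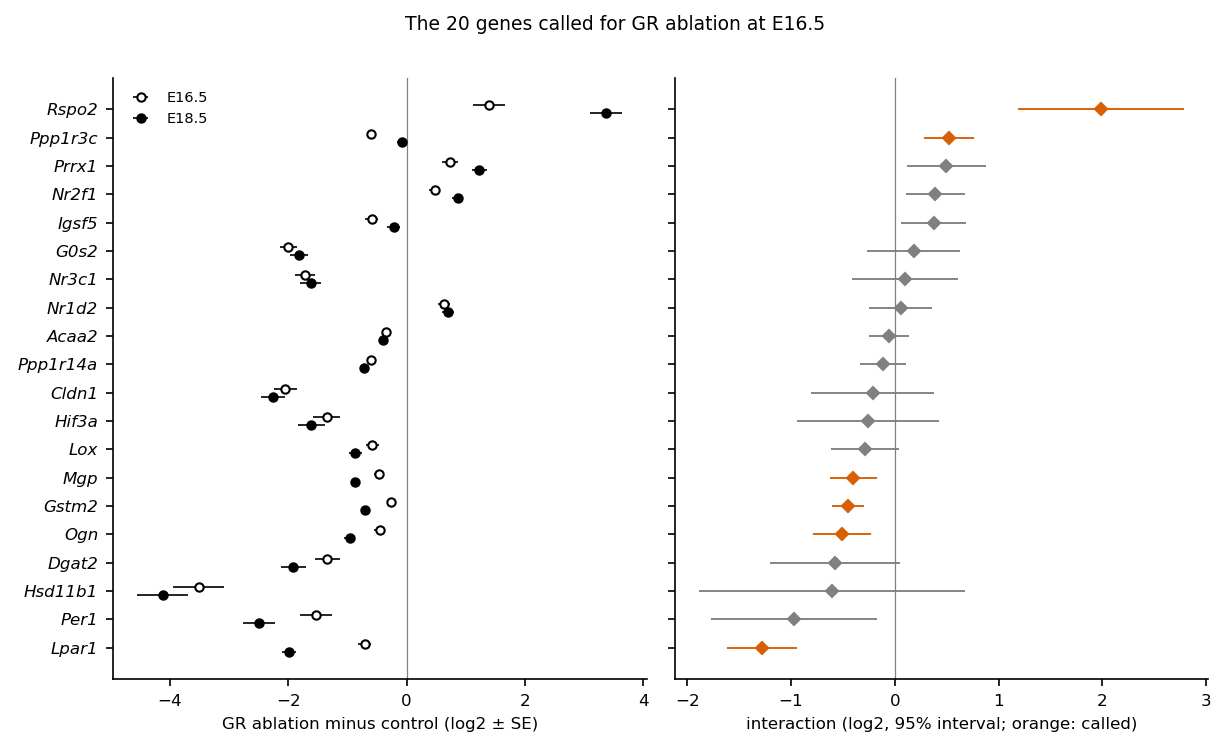
The 20 genes called for GR ablation at E16.5. Left, mutant minus control log2 difference at E16.5 (open) and E18.5 (filled) with limma standard errors; right, the interaction with its 95% interval, orange where called (6 genes) and grey where not (14 genes). Rspo2 and Lpar1 lie farthest from 0 on the right, and Ppp1r3c is the called gene whose effect shrinks toward 0 at E18.5.

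Rspo2, a secreted protein that strengthens Wnt signalling and is needed for lung branching, was higher in mutants at both stages. It read 6.24, 6.16, 5.69, 5.85 and 4.76 in E16.5 controls and 7.36, 7.12, 7.09, 7.17 and 6.88 in mutants. At E18.5 it read 3.84, 3.92, 5.204, 3.72 and 4.19 in controls and 7.91, 7.87, 7.26, 7.21 and 7.49 in mutants. No mutant overlapped with a control of its stage. The difference grew from 1.39 to 3.37, an interaction of 1.99 (SE 0.38, adjusted p = 0.00416), and from E16.5 to E18.5 the controls fell by 1.56 while the mutants changed by 0.42. With the 15 tested genes of the Wnt and R-spondin list, 1 was called higher (Rspo2) and 1 lower, the Wnt inhibitor Nkd1 (-1.11, adjusted p = 0.027, 15 of 20 leave-outs), and the median interaction was 0.13. Over all genes 3.62% were called higher and 4.78% lower, so these counts are not read as a result about the list.

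Among called genes measurable at E16.5, the most negative interaction belonged to Spon1, which encodes the matrix protein spondin. Spon1 read 4.77, 4.22, 3.96, 5.53 and 5.65 in E16.5 controls against 4.17, 4.27, 4.74, 4.70 and 4.82 in mutants of that stage. The E18.5 controls read 10.33, 10.19, 8.96, 10.13 and 10.39 and the mutants 6.05, 6.55, 6.74, 5.73 and 7.27. The groups overlapped at E16.5, where 1 control was below 4, and were far apart at E18.5, with E18.5 control replicate 3 the lowest of its group. The interaction was -3.24 (SE 0.49, adjusted p = 0.000409). Scel, a protein of the cornified envelope also found in type I cells (-2.46), Igfbp3, a binding protein for insulin-like growth factors (-2.41), and the sulfotransferase gene Sult5a1 (-2.23) were also among the called genes. Penk, the enkephalin precursor (-2.11), and Ecm1, a matrix glycoprotein (-1.96), had adjusted p of at most 0.000859, and these 5 genes were called in all leave-outs.

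Gpx3 and Npr3 rose in controls between the stages, and in mutants their change was not called. Gpx3, a secreted glutathione peroxidase, read 9.01, 8.86, 8.81, 9.07 and 8.74 in E16.5 controls and 8.97, 8.603, 8.33, 8.51 and 8.46 in mutants. Later, at E18.5, the values were 11.55, 11.45, 10.31, 11.45 and 11.47 in controls and 8.79, 8.67, 8.61, 8.26 and 8.73 in mutants. Its change between stages was 2.35 in controls (adjusted p = 3.91e-09) and 0.04 in mutants (0.879), which gave an interaction of -2.31 (SE 0.26, adjusted p = 2.98e-05). Npr3, the receptor that clears natriuretic peptides, read 7.49, 7.49, 7.70, 7.64 and 7.86 in E16.5 controls and 7.52, 7.76, 7.97, 7.81 and 7.76 in mutants. In controls at E18.5 the values were 9.74, 9.86, 8.87, 9.39 and 9.59, and in mutants 7.74, 7.64, 7.72, 7.24 and 7.74. Controls and mutants overlapped at E16.5 and were separate at E18.5 in both genes. The controls changed by 1.85 and the mutants by -0.15, an interaction of -2.004 (SE 0.21, adjusted p = 1.35e-05).

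Ptgis, the prostacyclin synthase of the vessel wall, and Cdkn1a, the cell cycle inhibitor p21, were the members of the vasoactive and growth arrest lists with the smallest p. Ptgis read 7.14, 6.95, 6.82, 6.89 and 6.52 in E16.5 controls and 7.17, 7.24, 6.88, 6.81 and 6.62 in mutants, and at E18.5 8.003, 7.99, 8.08, 7.79 and 8.16 in controls and 6.35, 6.25, 6.34, 5.74 and 6.22 in mutants. In controls it rose by 1.14 and in mutants it fell by 0.76, an interaction of -1.90 (SE 0.19, adjusted p = 1.11e-05). Cdkn1a read 6.19, 6.24, 6.22, 6.24 and 6.22 in E16.5 controls and 6.21, 6.21, 6.34, 6.70 and 6.53 in mutants, and at E18.5 8.15, 8.13, 7.74, 7.97 and 7.80 in controls and 6.42, 6.47, 7.04, 6.36 and 6.54 in mutants. The lowest E18.5 control (7.74) was above all E16.5 animals and all E18.5 mutants, the highest of which read 7.04. Its interaction was -1.57 (SE 0.17, adjusted p = 1.36e-05). Of the 14 tested vasoactive and prostanoid genes, 3 were called lower (Npr3, Ptgis and Ace, the angiotensin converting enzyme, -1.41) and 1 higher (Ptgds, the prostaglandin D synthase, 0.80, 6 of 20 leave-outs), with a median of -0.40. Of the 19 CDK inhibitors and growth arrest genes, Cdkn1a was lower and Gas2 higher (0.82, 4 of 20), with a median of -0.16. Over all genes 4.78% were called lower and 3.62% higher, and 1 of 19 each way is near those shares.

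**Figure D4:**
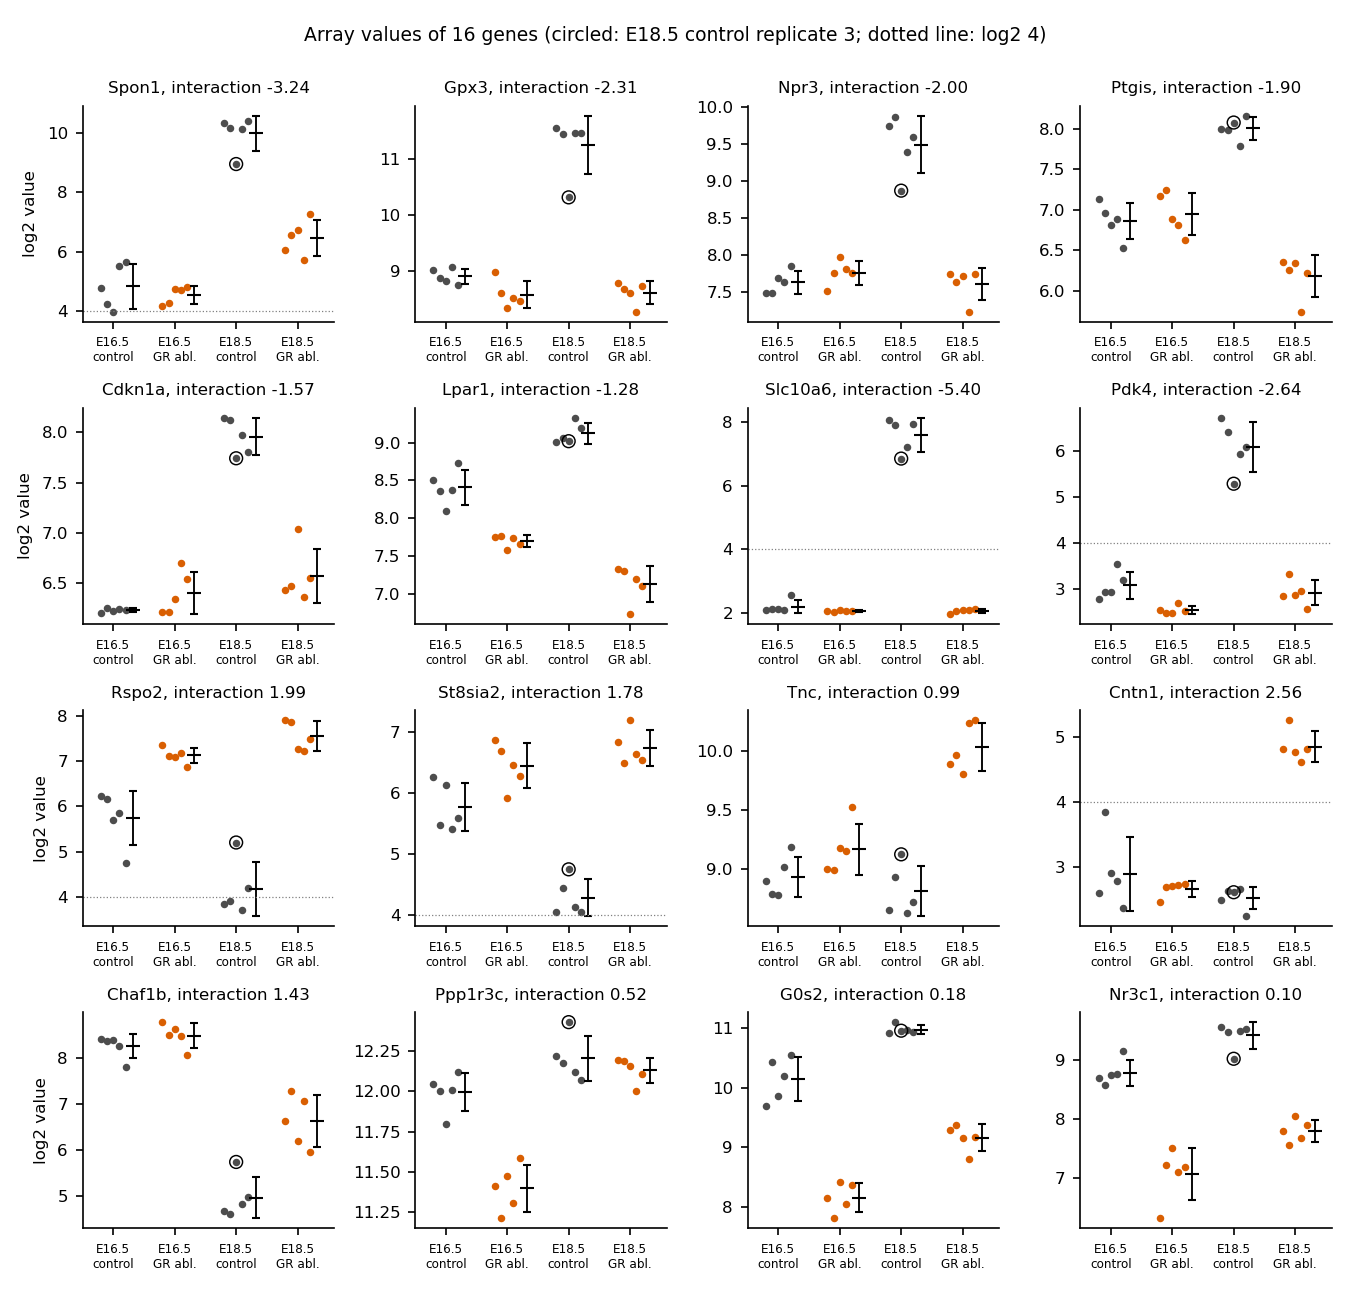
Log2 values of 16 genes on every array, by group (grey, controls; orange, GR ablation; 5 points each), with group mean ± SD beside them, E18.5 control replicate 3 circled and the threshold of 4 dotted where it is near the values. In Spon1, Gpx3, Npr3, Ptgis, Cdkn1a, Lpar1, Slc10a6 and Pdk4 the E18.5 controls stand above the other groups, in Rspo2, St8sia2, Tnc and Cntn1 the mutants stand above the controls at E18.5, and in G0s2 and Nr3c1 the groups are separate at both stages.

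Promoter sequences are given for Slc10a6, Gpx3 and Npr3, called genes whose window holds the core motif that GR recognises. Windows are the 250 bases before the transcription start in RefSeq on build GRCm38.p6, written 5′ to 3′ on the gene's strand, with the motif AGAACA or its reverse complement TGTTCT in capitals.
Slc10a6, chr5:103629404-103629653, minus strand: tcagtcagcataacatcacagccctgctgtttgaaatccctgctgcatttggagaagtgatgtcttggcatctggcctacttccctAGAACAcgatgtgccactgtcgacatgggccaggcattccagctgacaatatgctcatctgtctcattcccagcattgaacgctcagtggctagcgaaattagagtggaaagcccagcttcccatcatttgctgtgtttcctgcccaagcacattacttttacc
Gpx3, chr11:54902604-54902853, plus strand: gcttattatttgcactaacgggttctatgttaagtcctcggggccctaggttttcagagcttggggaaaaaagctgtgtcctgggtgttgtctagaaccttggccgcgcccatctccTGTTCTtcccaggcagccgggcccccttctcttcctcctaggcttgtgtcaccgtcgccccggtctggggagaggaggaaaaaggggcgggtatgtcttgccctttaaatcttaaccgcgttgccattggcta
Npr3, chr15:11907372-11907621, minus strand: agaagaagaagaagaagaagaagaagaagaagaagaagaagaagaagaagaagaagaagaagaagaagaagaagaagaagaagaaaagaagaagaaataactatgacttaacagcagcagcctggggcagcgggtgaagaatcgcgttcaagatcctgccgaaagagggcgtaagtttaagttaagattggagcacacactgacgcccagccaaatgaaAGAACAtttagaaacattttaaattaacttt
The motif starts 164, 133 and 31 bases before the transcription start. Searched on both strands, it was present in 16.1% of all 32851 promoters, in 10.7% of the 8541 promoters of tested genes, in 12.9% of the 326 of measurable genes called lower, in 11.8% of the 76 of dim genes called lower and in 11.6% of the 301 of genes called higher. The full arrangement, AGAACA and TGTTCT facing each other across 3 bases, was found in 3 of all promoters and in 0 of those of called genes, and a motif in this window is not evidence of binding.

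Genes that glucocorticoids are known to induce included many with a negative interaction. Of 31 tested members of that list, 13 were called lower and 1 higher, beside 4.78% and 3.62% of all genes, and the median interaction was -0.70. The median effect went from -0.24 at E16.5 to -1.34 at E18.5. The 13 were Slc10a6, Lcn2, Pdk4, Zbtb16, Adm, Fkbp5, Klf15, Cdkn1a, Cebpd, Klf9, Tgm2, Tsc22d3 and Dusp1, with interactions of -5.40 to -0.85. The E18.5 groups were separate in 17.4% of all genes and in all 13, from which nothing is read, since the call used those arrays. Of the 26 members measurable at E16.5, 8 were called lower, and so were all 5 dim ones, where 34.6% of all dim genes were; the dim members support nothing. Fkbp5, the co-chaperone that limits GR activity, went from -0.40 at E16.5 to -2.34 at E18.5 (interaction -1.94, SE 0.25, adjusted p = 8.87e-05). Klf9, a transcription factor, went from -0.45 to -1.92 (-1.47, SE 0.25), Tsc22d3, the mediator GILZ, from -0.28 to -1.34 (-1.06, SE 0.26), and the phosphatase Dusp1 from -0.16 to -1.02 (-0.85, SE 0.17). These 4 were singled out after their values were seen. The member with a positive interaction was Angptl4, an inhibitor of lipoprotein lipase (0.78, adjusted p = 0.0464, called in 5 of 20 leave-outs). The count of members called lower was 10 with sex as a covariate, 11 to 16 with each array left out, and 16 without E18.5 control replicate 3, and the list's median with sex as a covariate was -0.28.

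Enzymes of xenobiotic and oxidative metabolism include the lung's monooxygenases. Their median of -1.21 over 18 was the most negative among the lists with at least 5 tested members. Of the 18, 9 were called lower and 0 higher, beside 4.78% and 3.62% of all genes. The median and the count include 5 members dim at E16.5. Of these dim members 3 were called lower, where 34.6% of all dim genes were, and they support nothing. Of the 13 measurable members 6 were called lower. The flavin monooxygenase Fmo2 went from 5.75 ± 0.80 (SD, n = 5) in E16.5 controls to 9.91 ± 0.52 at E18.5, and in mutants from 4.43 ± 0.93 to 6.22 ± 0.18. Its interaction was -2.37 (SE 0.56, adjusted p = 0.0141), and its relative Fmo1 had -2.27 (adjusted p = 0.0313, 10 of 20 leave-outs). Cyp4b1, a cytochrome that is also a marker of club cells, had -1.53 (SE 0.37, adjusted p = 0.017). With sex as a covariate Fmo2 (-1.77, adjusted p = 0.106) and Cyp4b1 (-1.19, adjusted p = 0.111) were not called, and 5 of the list's members were. The other called members were Ephx1, Gstm1 and Gstm2 and the dim genes Inmt, Dpep1 and Xdh, described below. Leaving out E18.5 control replicate 3 raised the count from 9 to 13, and it was 7 to 13 over all leave-outs. In the antioxidant list 2 of 13 were called lower, Gpx3 and Gpx1 (-0.37, 8 of 20 leave-outs), and 1 higher, the thioredoxin reductase Txnrd1 (0.50, 18 of 20).

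Alveolar type I genes, which mark the flat cells of gas exchange, were called lower in 5 of 15 and higher in 1, with a median interaction of -0.65, where 4.78% of all genes were called lower. Of the 5, 2 were dim at E16.5 (Aqp5 and Col4a3) and support nothing, since 34.6% of all dim genes were called lower. The other 3 were among the 13 measurable members. The count called lower was 9 without E18.5 control replicate 3, and with sex as a covariate it was 3, with 0 higher. The effect on this list had a median of -0.16 at first and of -0.865 at E18.5. Pdpn, the podoplanin of type I cells, had an interaction of -0.61 (SE 0.15, adjusted p = 0.0158), and Vegfa, the growth factor for endothelium, -1.12 (0.0192, and 0.110 with sex as a covariate). Rtkn2 had -2.23 but kept its call in 5 of 20 leave-outs, and the member with a positive interaction, Igfbp2 (1.64), in 7 of 20. The summed signal of the 15 type I genes on the array lay at 13.9 to 14.4 in E16.5 controls against 13.7 to 14.2 in mutants of that stage, and at 15.52 to 15.93 against 14.8 to 15.3 at E18.5, on the log2 scale. Of the 17 type II genes, which mark the surfactant-making cells, 1 was called lower, the desaturase Scd1 (-1.97, adjusted p = 0.048, 4 of 20), and the median was -0.14. Club cell genes had 2 of 12 called lower (Cyp4b1 and Gsto1, -1.45, 7 of 20), and ciliated cell genes 0 of 6, with -0.45 for Tppp3 and -0.34 for Mlf1.

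Genes of ion and water transport include the channels that clear liquid from the airspaces at birth, and 5 of 14 were called lower. These were Car4, Scnn1a, Aqp5, Scnn1b and Aqp1, and 4 of them were dim at E16.5. The share called lower was 4.78% of all genes and 34.6% of dim genes, and 2 of the 14 were called lower with sex as a covariate and 2 with the replicate number as a block. The measurable called member was Aqp1, a water channel of endothelium, with an effect of -0.15 at E16.5 and -1.16 at E18.5. It had an interaction of -1.01 (SE 0.29, adjusted p = 0.0399), and its leave-outs were not counted. Of 25 endothelial genes 6 were called lower and 1 higher, with a median of -0.37. Of the 6, 1 was the dim gene Car4, which supports nothing, and 5 were measurable. Ramp2, a co-receptor for adrenomedullin, went from -0.03 to -0.61 (-0.57, SE 0.10, adjusted p = 0.00238). Icam2, an adhesion molecule, had -0.78 (SE 0.14, adjusted p = 0.00248) and Lyve1, a hyaluronan receptor of lymphatic and some blood vessels, -0.91 (0.0117). Pecam1 and Emcn, general markers of endothelium, had -0.49 and -0.57, and the higher member was the apelin receptor Aplnr (0.48). The summed endothelial signal was 14.4 to 14.7 in E16.5 controls, 14.4 to 14.6 in E16.5 mutants, 15.2 to 15.3 in E18.5 controls and 14.8 to 15.0 in E18.5 mutants. With sex as a covariate 3 of the 25 were called lower and 0 higher. The leave-outs gave 4 to 11 called lower, with 11 without E16.5 control replicate 5 and 9 without E18.5 control replicate 3.

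Matrix genes moved both ways. Of 24 interstitial collagen and matrix genes, 5 were called lower (Spon1, Col14a1, Postn, Ogn and Mgp) and 3 higher (Vcan, Fmod and Tnc), with a median of -0.09. Over all genes 4.78% were called lower and 3.62% higher. Postn, or periostin, went from 11.30 ± 0.22 (SD, n = 5) to 12.66 ± 0.03 in controls and from 11.26 ± 0.18 to 11.96 ± 0.07 in mutants, an interaction of -0.66 (SE 0.13, adjusted p = 0.00656). Tnc, the matrix protein tenascin-C of growing tissue, read 8.90, 8.79, 8.78, 9.02 and 9.19 in E16.5 controls and 8.996, 8.99, 9.18, 9.15 and 9.53 in mutants. At E18.5 it read 8.65, 8.93, 9.12, 8.62 and 8.72 in controls and 9.90, 9.97, 9.81, 10.24 and 10.26 in mutants, where the groups were separate. The change between stages was -0.12 in controls (adjusted p = 0.385) and 0.87 in mutants (1.26e-05), an interaction of 0.99 (SE 0.18, adjusted p = 0.00224). Vcan, a large hyaluronan-binding proteoglycan, had 1.97 (SE 0.38), and the collagen-binding Fmod 1.54 (SE 0.36). Both were higher in E18.5 control replicate 3 (Vcan 9.73, Fmod 11.1) than in the other E18.5 controls.

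In the elastic fibre list 2 of 14 were called lower and 1 higher, beside 4.78% and 3.62% of all genes. Eln, the elastin gene, had an effect of -0.41 at E16.5 (adjusted p = 0.496) and of -1.34 at E18.5 (5.63e-07), an interaction of -0.93 (SE 0.18, adjusted p = 0.00502). At both stages the mutants were separate from the controls. Fbn2, the fetal fibrillin, went the other way, with 9.55 ± 0.49 (SD, n = 5) in E18.5 controls and 11.18 ± 0.38 in mutants and an interaction of 1.81 (SE 0.34, adjusted p = 0.00347). Fbln5, which helps to assemble elastin, had -0.59 (4 of 20 leave-outs). Among matrix proteases Adam12, a membrane-bound metalloprotease, had 1.03 (SE 0.15, adjusted p = 0.000251), and of the basement membrane genes Col18a1 had 1.30 but kept its call in 3 of 20 leave-outs. The 11 matrix fibroblast markers had 0 called genes (Fbln1 at 0.90, Mfap5 at -1.20), smooth muscle genes 1 of 16 lower (Cnn2, -0.33, 11 of 20) and pericyte genes 1 of 9 lower (Postn).

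Genes of DNA replication had the largest share of members called for a positive interaction among the lists with at least 5 tested members. Of 30 tested members 19 were called higher and 0 lower, beside 3.62% and 4.78% of all genes. The median interaction was 0.85, and the median effect went from 0.02 at E16.5 to 0.87 at E18.5. The controls of this list changed by a median of -2.02 between the stages and the mutants by -1.19. The 19 were the helicase subunits Mcm2 to Mcm7, their loader Cdt1 and partner Mcm10, the polymerase alpha subunits Pola1 and Prim1, the clamp loaders Rfc3 and Rfc5, Fen1, Lig1, Gins1, Rpa2, Rrm1, Ccne2 and Chaf1b, with interactions of 0.70 to 1.58. Chaf1b, a chaperone that loads histones onto new DNA, read 8.42, 8.38, 8.40, 8.27 and 7.80 in E16.5 controls and 8.78, 8.49, 8.62, 8.48 and 8.06 in mutants. The E18.5 controls read 4.68, 4.62, 5.74, 4.83 and 4.98 and the mutants 6.64, 7.29, 6.21, 7.07 and 5.95, with E18.5 control replicate 3 highest among the controls and every mutant above it. Its interaction was 1.43 (SE 0.34, adjusted p = 0.0153). Mcm3 had the smallest p of the list (0.98, SE 0.16, adjusted p = 0.00123), and is named for that after its values were seen. Pola1 had 1.58 (0.0206), while Mcm10 (1.49, 5 of 20) and Gins1 (1.20, 7 of 20) were less stable.

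Averaged over the 30 genes, the list lay at 9.85 to 10.2 in E16.5 controls against 9.90 to 10.2 in mutants of that stage. At E18.5 it lay at 7.58, 7.74, 7.73 and 7.68 in control replicates 1, 2, 4 and 5, at 8.33 in control replicate 3, and at 8.94, 9.01, 8.44, 9.12 and 8.18 in the mutants. Mutant replicate 5 was thus below control replicate 3. The count of 19 became 27 without that control or without E18.5 mutant replicate 5, 22 without E18.5 mutant replicate 3 or E16.5 control replicate 5, and 10 without E18.5 control replicate 1, E18.5 control replicate 5 or E18.5 mutant replicates 2 or 4. With sex as a covariate 5 of the 30 were called, while the median stayed at 0.84.

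Mitosis genes had a higher median, 1.09 over 28 members, but fewer calls, 9 higher and 0 lower, beside 3.62% and 4.78% of all genes. The 9 were Bub1, Cdc20, Cenpa, Cenpe, Cenpf, Kif11, Mki67, Nek2 and Prc1, with interactions of 0.86 to 1.59, and in none of them were the E18.5 groups separate. This count rested on a few arrays. It was 28 without E18.5 control replicate 3, 25 without E18.5 mutant replicate 5, 18 without E18.5 mutant replicate 3, 1 to 8 without any of the other 17 arrays, and 1 with sex as a covariate. The list mean was 7.82 to 7.91 in 4 E18.5 controls, 9.15 in E18.5 control replicate 3, and 9.68, 9.57, 8.59, 9.44 and 8.43 in the E18.5 mutants, so 2 mutants lay below that control. Cenpe, a motor of chromosome alignment, was called in all leave-outs (1.59, SE 0.38, adjusted p = 0.0147), although its E18.5 control mean was dim at 3.39 ± 0.28 (SD, n = 5). Psrc1, a spindle protein (2.30, adjusted p = 0.0209), and Lrr1, a ubiquitin ligase subunit that acts on replication forks (1.83, 0.00772), were among the 12 most positive genes, as was Dlgap5 (1.97, 4 of 20). The share of epithelial, mesenchymal and other cells among dividing cells was not measured.

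Cldn6, an embryonic claudin, had the most positive called value after the Y-linked Kdm5d, 3.15 (SE 0.70, adjusted p = 0.0117), with 4.06 ± 1.398 (SD, n = 5) in E18.5 controls and 7.24 ± 0.90 in mutants. Here E18.5 control replicate 3 read 6.56 and the other 4 controls 3.33 to 3.47. In the list of epithelial lineage and distal tip genes, which mark the growing ends of the airway tree, 3 of 19 were called higher: Cldn6, Sox9 (1.28, 18 of 20) and Epcam (0.81, 6 of 20). The median of this list was 0.14, and 1 member was called with sex as a covariate and 0 with the replicate number as a block. Over all genes 3.62% were called higher. Col9a1, a cartilage collagen, had 3.05 (SE 0.71, adjusted p = 0.0135) in its brightest probe set, while its other tested probe set had 0.11. Its call was lost with the mean of its probe sets and with the replicate number as a block. Of the 17 cartilage genes on the array 8 were dim on all arrays, the defining markers Acan and Matn1 among them, and Col2a1 averaged 2.57 in E18.5 controls and 3.01 in mutants. Mia, named for its discovery in melanoma (1.83, 0.0135), the receptor gene Igdcc4 (1.72, 0.00103) and the chemokine Ccl11 (2.44, 0.00227) were also higher, Igdcc4 being the 1 called of the 5 tested let-7 target oncofetal genes (median 0.15). Ccl11 read 9.03 in E18.5 control replicate 3 against 6.56 to 7.26 in the other controls.

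The list of polysialic acid and neural adhesion genes, whose products modify contacts between migrating or growing cells, had a count that no leave-out changed. Of its 9 tested members 4 were called higher and 0 lower, beside 3.62% and 4.78% of all genes. The count called higher was 4 in each leave-out, with sex as a covariate and with the replicate number as a block. St8sia2, which makes polysialic acid chains, read 6.27, 5.48, 6.13, 5.41 and 5.59 in E16.5 controls and 6.88, 6.70, 5.92, 6.45 and 6.28 in mutants. Later, at E18.5, the values were 4.04, 4.44, 4.75, 4.13 and 4.06 in controls and 6.83, 6.49, 7.20, 6.64 and 6.53 in mutants, and the groups no longer overlapped. Controls fell by 1.49 between the stages and mutants changed by 0.29, an interaction of 1.78 (SE 0.29, adjusted p = 0.000879). The adhesion gene Nrcam had 0.94 (SE 0.21, adjusted p = 0.0112), and Cdh11, a mesenchymal cadherin that was bright in all groups, a small interaction of 0.35 with an SE of 0.08 (0.0126). The fourth was Cntn1, dim at E16.5, which passed the filter only through the E18.5 mutants and supports nothing. The other 3 were among the 8 measurable members.

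Among signalling genes the FGF, Hedgehog and BMP/TGF-beta list had 5 of 25 called higher and 0 lower (Tgfb2, Fgf18, Smo, Bmp5 and Id3), with a median of 0.08, where 3.62% of all genes were called higher. Of the 25, 2 were called higher with sex as a covariate and 2 with the replicate number as a block. Tgfb2, a growth factor of the TGF-beta family, had an effect of -0.09 at E16.5 and 0.93 at E18.5 (interaction 1.02, SE 0.22, adjusted p = 0.00896). Smo, the Hedgehog transducer, had 0.52 (16 of 20 leave-outs) and Bmp5 0.51 (4 of 20). Of the 22 mesenchymal transcription factors the Hedgehog effector Gli2 was called higher (0.62, 7 of 20) and Meox1 lower (-0.76, 0.00772). The leave-outs gave 3 to 9 higher genes in the signalling list, the highest without E18.5 control replicate 3.

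Smaller groups were as follows, where 4.78% of all genes were called lower and 3.62% higher. A single call in a list is not read as a result about the list. Of the lipofibroblast list, genes for triglyceride storage, 3 of 15 were called lower: Lpar1, the lipase Lpl (-0.87, 0.0131) and the triglyceride lipase Pnpla2 (-0.63, 0.0183), with a median of -0.42. Immediate-early genes had 2 of 16 lower, Jun (-0.52, 0.0128) and Klf6 (-0.79, 0.0224), and mesothelial genes 2 of 5 lower, Gpm6a (-0.96, 0.0141) and Krt19 (-0.83, 7 of 20). Of 14 clock genes 1 was called, Nfil3 (-0.53, 11 of 20), although Per1 and Nr1d2 differed between mutants and controls at both stages. Fatty acid and cholesterol synthesis had 1 higher, Dhcr7 (0.63, 8 of 20), and 1 lower, Scd1, of 16. In the list of insulin-like growth factor and imprinted genes Igfbp3 (0.000645) and Igfbp7 (-0.74, 6 of 20) were lower and Igfbp2 higher, of 18.

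In 12 called genes the mutant effect had opposite signs at the stages with an unadjusted p under 0.05 at each. Apoe, the lipid carrier, read 10.27, 10.23, 10.02, 10.22 and 10.30 in E16.5 controls and 10.53, 10.21, 10.59, 10.38 and 10.52 in mutants. In controls at E18.5 the values were 11.51, 11.49, 11.29, 11.68 and 11.50, and in mutants 11.01, 10.93, 10.95, 10.71 and 11.38. The groups overlapped at both stages, with effects of 0.24 and -0.50 and an interaction of -0.73 (SE 0.15, adjusted p = 0.00645). Pcolce2, which assists procollagen processing (0.44 and -0.44), and the mitochondrial nucleotide carrier Slc25a33 (0.29 and -0.31) were separate between genotypes at E16.5 and overlapped at E18.5. The guidance cue Ntn1 (0.72 and -0.77), the kinase subunit Prkar1b (0.22 and -0.32) and Ccdc107 (0.20 and -0.29) were above controls at E16.5 and below them at E18.5. The dim gene Tor3a (0.75 and -1.24) and, less stably, Nadk (9 of 20 leave-outs), Suox (10 of 20) and Apbb1 (13 of 20) did the same, but the E16.5 means of Tor3a were 3.08 and 3.82, so its difference at that stage is among dim values. Fgf18, a growth factor made by lung mesenchyme (-0.33 and 0.20, interaction 0.53, adjusted p = 0.017), and Antxr1, a collagen receptor (-0.17 and 0.23, 0.0234), were below controls first and above them later. None of these E16.5 effects passed adjustment over all genes, the smallest adjusted p being 0.328 for Fgf18.

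The 79 dim genes with a negative interaction had a median interaction of -1.66 and median E18.5 effect of -1.79, and in 38 of them the E18.5 mutant mean was dim too. They are 34.6% of the dim genes tested, a share the filter itself favours. Slc10a6, a transporter of sulfated steroids whose promoter is printed above, read 2.08, 2.12, 2.11, 2.10 and 2.55 in E16.5 controls and 2.07, 2.03, 2.09, 2.05 and 2.05 in mutants. At E18.5 it read 8.08, 7.92, 6.85, 7.22 and 7.93 in controls and 1.96, 2.07, 2.10, 2.09 and 2.11 in mutants. Only the E18.5 controls were above 4. Its interaction of -5.40 (SE 0.24) had the smallest adjusted p of all genes tested, 4.56e-11, and its size is limited by the floor of the values in 3 groups. Pdk4, a kinase that shifts cells from glucose to fat oxidation, read 2.80, 2.95, 2.93, 3.54 and 3.20 in E16.5 controls and 2.55, 2.48, 2.49, 2.71 and 2.52 in mutants. The later controls read 6.72, 6.41, 5.29, 5.94 and 6.08 and the later mutants 2.86, 3.32, 2.87, 2.97 and 2.57, with no overlap at either stage. Its interaction was -2.64 (SE 0.28, adjusted p = 1.36e-05).

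Inmt, a methyltransferase (-5.45, SE 0.90), Dpep1, a dipeptidase (-4.20, SE 0.62), Xdh, xanthine dehydrogenase (-3.60, SE 0.66), the adhesion adaptor Lims2 (-3.74, SE 0.28) and the amino acid transporter Slc7a10 (-3.69, SE 0.38) were called in all leave-outs. Car4, a carbonic anhydrase of lung capillaries (-3.85, 14 of 20), and Lcn2, an iron-binding acute phase protein (-3.48, 4 of 20), varied more. In Inmt the lone low control was E18.5 control replicate 3 at 4.39, against 8.71 to 9.38 in the other 4, and in Car4 the same array read 5.39 against 8.42 to 9.19. The transcription factor Zbtb16 (-2.49, 0.0203), the vasodilator Adm (-2.44, 3.16e-05), the acute phase gene Saa3 (-1.82), the receptor gene Il6ra (-1.49) and the protease Adamts15 (-1.31) were also lower. So were the sodium channel subunits Scnn1a (-2.72, 0.00907) and Scnn1b (-1.37, 0.0215), Aqp5, the water channel of type I cells (-2.02, 0.0126), and Col4a3 of the alveolar basement membrane (-2.61, 0.0135). Zbtb16 was at -1.62 with a limma adjusted p of 0.159 when sex was a covariate.

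Dim genes with a positive interaction were Cntn1, H2-Eb1 and Syne4. Cntn1, a neural adhesion protein, read 2.61, 3.85, 2.91, 2.78 and 2.37 in E16.5 controls and 2.46, 2.70, 2.71, 2.73 and 2.74 in mutants. The E18.5 controls read 2.49, 2.63, 2.62, 2.67 and 2.25. The E18.5 mutants read 4.81, 5.26, 4.76, 4.61 and 4.81 and were the only group above 4. Its interaction was 2.56 (SE 0.27, adjusted p = 1.35e-05). H2-Eb1, a class II histocompatibility gene of antigen-presenting cells, had 2.21 (SE 0.39, adjusted p = 0.00232). Its partners H2-Ab1 (1.37, 12 of 20) and H2-Aa (1.20, 3 of 20) were measurable and also called, which makes 3 of 11 histocompatibility genes, where 3.62% of all genes were called higher. As a dim gene H2-Eb1 supports nothing, and of the 8 measurable members 2 were called. The median interaction of the list was -0.14. With sex as a covariate 1 of the 11 was called higher, and with the replicate number as a block 1. The 15 macrophage and leukocyte genes had 0 called members in limma, with -1.21 for Lyz2 and -0.51 for Tyrobp, and their summed log2 signal was 13.4 to 14.1 in E18.5 controls and 12.5 to 14.0 in E18.5 mutants. Syne4 had a small value, 0.45 (9 of 20).

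**Figure D5:**
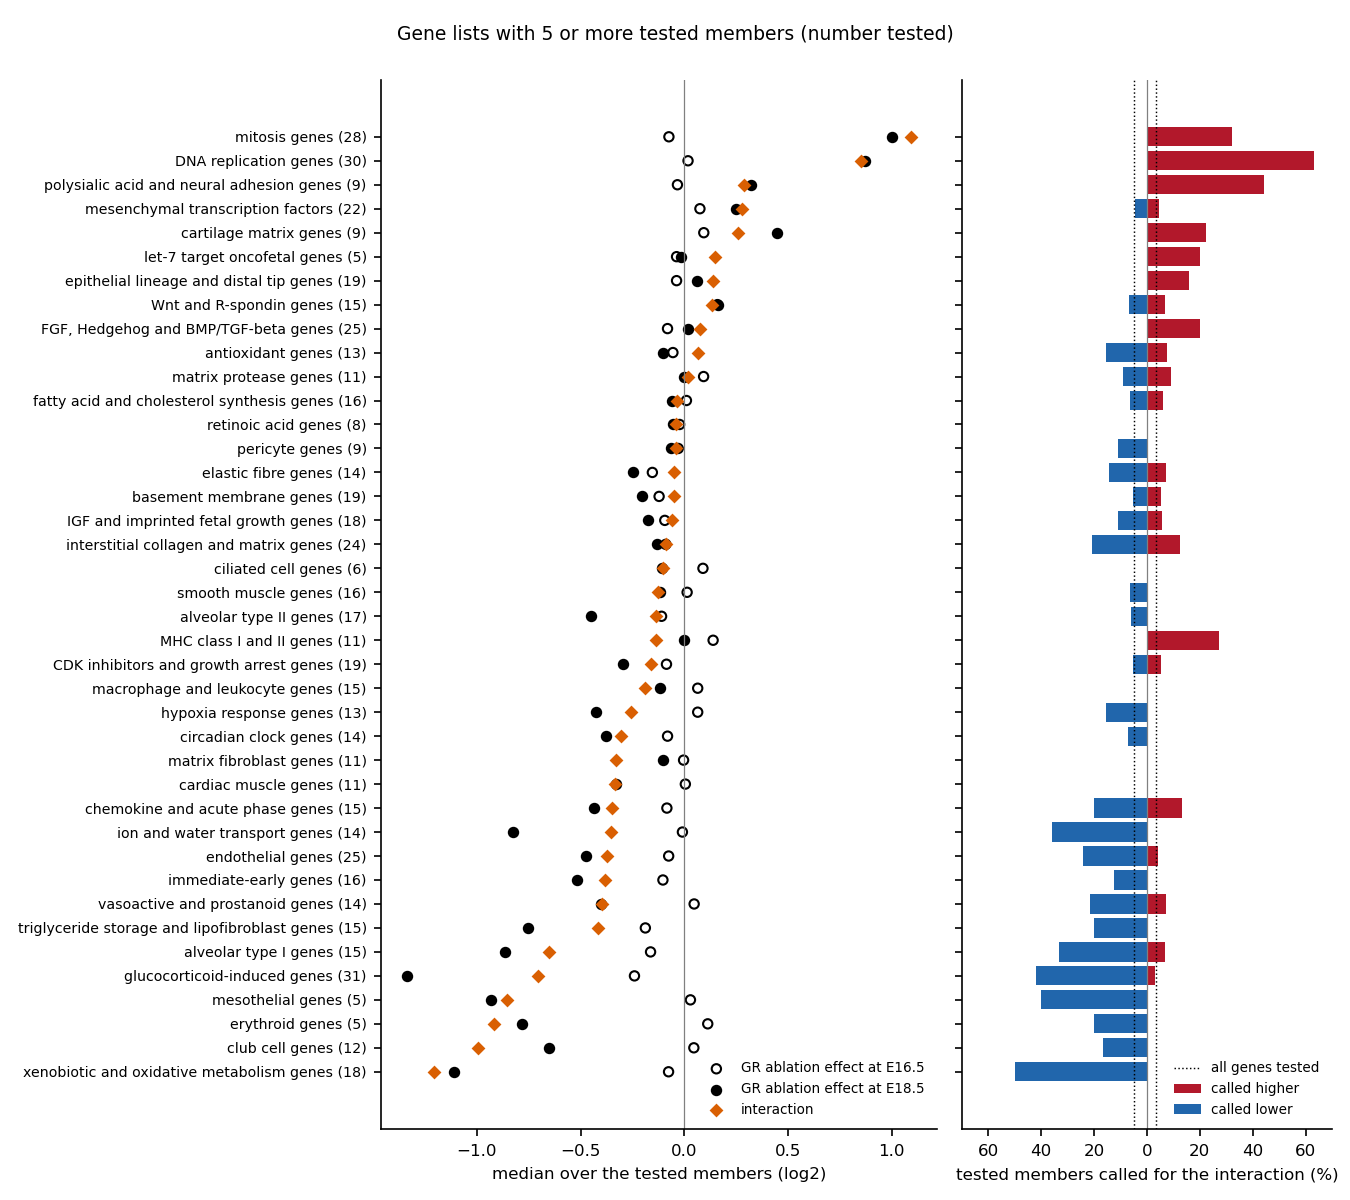
Gene lists with at least 5 tested members, ordered by median interaction. Left, median log2 mutant effect at E16.5 (open circles) and E18.5 (filled circles) and median interaction (diamonds); right, percentage of tested members called for the interaction, higher to the right and lower to the left, with dotted lines at 3.62% and 4.78% for all genes. DNA replication has the largest share called higher (19 of 30) and xenobiotic metabolism the largest called lower (9 of 18), while the E16.5 medians stay within 0.25 of 0. The medians and shares include members dim at E16.5, 3 of those 9 among them.

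Markers of tissues that a dissection could carry over were compared in the same way, beside 4.78% of all genes called lower and 3.62% higher. Cardiac muscle genes had 0 of 11 called (Myl3 at 1.83, Ryr2 at -1.31), and their summed log2 signal was 12.8 to 13.3 in E18.5 controls and 12.4 to 12.9 in E18.5 mutants. Liver genes had 0 of 2 called (Afp at -1.68, Alb at -0.97), with 6 of 9 dim on all arrays. Of the 7 neural genes on the array 6 were dim throughout and the other, Stmn2, was called lower (-1.56, 15 of 20). Erythroid genes had 1 of 5 called lower, Alas2 (-0.92, 9 of 20), with sums of 11.8 to 13.3 in E18.5 controls and 11.57 to 11.99 in mutants. Their part in the interactions above was not tested.

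Embryo sex has to be read beside Kdm5d, a Y-linked histone demethylase that had the most positive interaction of all, 6.27 (SE 1.88, adjusted p = 0.0462, 4 of 20 leave-outs). It read 7.80, 7.56, 7.67, 7.52 and 2.27 in E16.5 controls against 2.21, 2.28, 2.25, 2.30 and 2.27 in mutants of that stage, which follows the 4 male and 1 female controls and the 5 female mutants. The E18.5 controls read 2.26, 2.26, 8.04, 2.26 and 2.25 and the mutants 7.55, 2.23, 7.19, 2.25 and 7.72. Its value was 1.88, with a limma adjusted p of 0.375, when sex was a covariate. E18.5 control replicate 2 read low in Kdm5d although Eif2s3y (10.2) and Uty (6.23) were high there. Steroid receptor and glucocorticoid metabolism genes had 0 of 4 called, with -1.90 for the reductase Akr1c14 beside Hsd11b1, and retinoic acid genes 0 of 8, with -0.86 for Aldh1a2 and -0.59 for Aldh1a1. In limma these 12 genes had unadjusted p of at least 0.00662.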

How the data were processed

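Gene expression was measured on 20 Mouse430A_2 arrays of left lung lobes, stored in RNALater and extracted with RNeasy per the labels. The deposited values are log2 expression made by the authors with GCRMA, per the submitters' processing notes; its version is among the details not given in the sources used. Of 22690 probe sets 20380 name 1 gene, 691 several, 1555 none and 64 are controls, and the first gave 12393 genes, each by its brightest probe set; 20351 probe sets matched RefSeq by gene ID. Genes above 4 on at least 5 arrays (8068) were fitted with limma 3.58.1 (R 4.3.3) as 4 group means over 20 arrays, with Benjamini-Hochberg adjustment over all 8068 and a call at an adjusted p under 0.05. The number of arrays, 5 per group and 1 per animal, limits the precision. Sex was read from Xist and Y-linked genes.

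The members and gene lists were chosen with earlier results of these data known. Genes were named by rule: Nr3c1; the 12 most negative and 12 most positive called genes measurable at E16.5; the 8 most negative and 8 most positive called dim genes; every gene called at E16.5; called genes with opposite signs at an unadjusted p under 0.05; and up to 4 called members of each list by size, or 2 members where none was called. Riken, Gm and expressed-sequence names were skipped. Fkbp5, Klf9, Tsc22d3, Dusp1, Angptl4, Mcm3, Pdpn, Aqp1, Pecam1, Emcn and Aplnr lie outside the rule and were named after their values were seen, as were the other members of the called lists. In simulated data with 200 changed of 8068 genes, limma recovered 73% of interactions of 1 and 34% of 0.5 on the log2 scale, called 0 of 100 genes with equal effects at both stages, and 5.31% of its calls were false. The simulated noise was independent between genes, with the same spread in all groups and no shift of whole arrays or imbalance of sex. These rates therefore need not hold for the measured arrays. Alternatives were other filters, thresholds, scalings, probe set rules and variance models, a replicate block, a sex covariate, and each array left out.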

Additional observations from a re-analysis of the deposited data

Results flagged for a closer look

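The effect of GR loss differed between the stages, by the test of the difference itself, for 678 genes in all, 596 measurable at E16.5 and 82 dim there. Effects of opposite sign at the stages accompanied the interactions of Apoe (-0.73), Antxr1 (0.40), Nadk (-0.39), Prkar1b (-0.54), Pcolce2 (-0.88) and Ccdc107 (-0.49). The same held for Fgf18 (0.53), Apbb1 (-0.52), Slc25a33 (-0.60), Suox (-0.74), Tor3a (-1.98) and Ntn1 (-1.49). No comparison above used probe sets with several gene names or with none. In limma 49 of 993 such sets were called for the interaction (4.93%), 28 higher and 21 lower.

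Within groups of 5, a sample far from the other 4 by Dixon's criterion was found in 76 of 517 groups of values (14.7%), where chance gives about 1 in 20, and 49 of the 76 lay in E18.5 control replicate 3. On that array the log2 values low against the other E18.5 controls were Ace (7.85), Adamts15 (3.74), Akr1c14 (9.95), Car4 (5.39), Cyp4b1 (8.13), Dpep1 (9.44), Eln (12.64), Gpx3 (10.31) and Icam2 (11.27). So were Igfbp7 (11.14), Il6ra (5.47), Inmt (4.39), Lims2 (5.18), Lyve1 (10.77), Nadk (9.28), Nkd1 (8.50), Nr3c1 (9.02) and Rtkn2 (6.89). So were Ryr2 (4.45), Scd1 (11.28), Scnn1a (5.55), Scnn1b (5.04), Slc7a10 (4.44), Spon1 (8.96), Txnrd1 (9.05), Vegfa (9.92), Xdh (7.83) and Zbtb16 (3.31). High against them were Bmp5 (8.26), Bub1 (9.07), Ccl11 (9.03), Cldn6 (6.56), Col18a1 (10.84), Col9a1 (6.60), Dgat2 (6.81), Dlgap5 (6.32) and Epcam (10.88). So were Fbln1 (10.30), Fbn2 (10.40), Fmod (11.11), Gins1 (7.83), Gpm6a (8.09), Igfbp2 (9.37), Kdm5d (8.04), Kif11 (8.16) and Krt19 (12.54). So were Lox (13.08), Lrr1 (5.50) and Vcan (9.73).

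In E16.5 control replicate 5, the female of its group, the values apart from the others were Ace (6.59), Aldh1a2 (6.70), Chaf1b (7.80), Kdm5d (2.27), Tgfb2 (10.41), Tppp3 (8.54) and Zbtb16 (4.18). In E18.5 mutant replicate 4 they were Acaa2 (10.29), Alas2 (10.14), Npr3 (7.24) and Ptgis (5.74). Among the other E16.5 controls, replicate 1 stood apart in Ramp2 (10.84), replicate 2 stood apart in Pnpla2 (6.85) and replicate 3 stood apart in Apoe (10.02). Among the other E16.5 mutants, replicate 1 stood apart in Dgat2 (3.55) and Mgp (13.08), replicate 2 stood apart in Gli2 (8.53), replicate 4 stood apart in Cenpf (9.10) and Igfbp3 (6.77) and replicate 5 stood apart in Vcan (10.65). Among the other E18.5 controls, replicate 1 stood apart in Nr2f1 (7.89), replicate 2 stood apart in G0s2 (11.11) and replicate 4 stood apart in Cldn1 (7.04). Among the other E18.5 mutants, replicate 2 stood apart in Jun (10.03), replicate 3 stood apart in Cdkn1a (7.04) and replicate 5 stood apart in Myl3 (6.94) and Penk (8.01).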

How the results depend on the processing

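With array weights limma called 2244 genes (2113 measurable at E16.5, 131 dim), with sex as a covariate 403 (347 measurable), at an adjusted p under 0.01 166 (126 measurable, 40 dim) and at 0.10 1199 (1094 measurable). A filter at 5 left 51 dim calls and a dim threshold of 3 left 39. With sex as a covariate and without E18.5 control replicate 3, chosen after seeing the data, 1015 genes were called, 910 of them measurable. Leaving out each array gave 393 to 1445 genes in all, 332 to 1328 measurable and 60 to 117 dim. The share of lower calls was 56.9%, 69.3% at the stricter threshold, 50.1% with array weights, 48.0% without E18.5 control replicate 3, 53.2% after quantile normalization and 52.6% after median centring; among measurable genes it was 51.5%, 47.8% after quantile normalization and 46.3% after median centring.

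Replicate numbers were not taken to pair the animals: deviations of same-numbered arrays correlated at -0.10 to 0.60 at E16.5 and at -0.43 to 0.21 at E18.5, and the own number was the best match for 4 of 5 and for 0 of 5 numbers. With the number as a replicate block 443 genes were called, 386 of them measurable, and 75 of the 116 named called genes stayed called.

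No named called gene changed direction. Among uncalled genes, Nr3c1 was at -0.065 with the mean of its probe sets, at -0.18 with array weights and at -0.093 to 0.20 over the leave-outs. Acaa2 was at 0.0045 with array weights, and Nr1d2 at -0.011 to 0.13 over the leave-outs and at -0.14 with sex as a covariate and E18.5 control replicate 3 left out. Values near 4 limit what could be seen for dim genes.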
